A study of Mus musculus with 6 samples.

Results

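The Eph receptor genes Epha3, Epha5 and Epha7 and the class 3 semaphorin genes Sema3a and Sema3d encode cell-contact and secreted guidance molecules of the developing nervous system. They were selected by gene symbol, with their fold changes in these data known, and are 5 of the 1167 genes found in the deposited lists. All 5 were listed as lower in homozygous Chd7 mutant otocysts, and Sema3a alone was also listed, again as lower, in heterozygous otocysts. The falls in homozygotes ranged from a log2 fold change of -3.32 for Epha5 to -0.44 for Sema3a from the authors' deposited table. Because these values chose the 5 genes, they are given as a description and no test of the group was made.

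Polyadenylated RNA was sequenced from otocysts, the epithelial vesicles from which the inner ear forms, taken from mouse embryos of the B6129SF1/J strain at embryonic day 10.5. The groups were Chd7Gt/+ (heterozygous, 1 trapped allele), Chd7Gt/Gt (homozygous, 2 trapped alleles) and Chd7+/+ (wild type, 0 trapped alleles), with 2 libraries each and no further treatment named in the labels. Gt denotes a gene trap allele of Chd7, which encodes a chromatin remodelling enzyme, and loss of a copy of its human counterpart underlies CHARGE syndrome. The labels name no tissue-restricted driver, so the tissue around the vesicle carries the same genotype as the vesicle. Homozygous loss of Chd7 is known to be lethal around mid-gestation, which limits these embryos as a model of ear development alone. Whether both libraries of a genotype were made from different embryos is not in the labels, and an adjusted p then reflects only how far these libraries varied, which may be technical.

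What the authors deposited is a list of higher and a list of lower genes for each mutant genotype, with a log2 fold change (mutant over wild type) and an adjusted p under 0.05 for every gene. They hold no value per library, so no standard error, level or depth stands beside a fold change. A gene outside the lists may have missed the threshold or may not have been tested, and is written as not listed. Chd7 itself was at 67.1% of wild type in heterozygotes and at 22.4% in homozygotes (log2 -0.57 and -2.16 from the authors' deposited table). In homozygotes, Eya1 and Oc90 were the 2 lower genes among 17 markers of the otic epithelium. Sparcl1 was the 1 higher gene there and 14 were not listed, where 3.05% of 21900 protein-coding genes in RefSeq were lower. In heterozygotes Sparcl1 alone of the 17 was listed, as lower (log2 -0.64, adjusted p 1.14e-05 from the authors' deposited table). The lists give no level by which the dissected tissue could be checked. In whole otocysts, fewer cells of a type and less RNA per cell cannot be told apart.

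Eph receptors are receptor tyrosine kinases that bind membrane-anchored ephrins on neighbouring cells. EphA receptors mainly bind the lipid-anchored ephrin-A ligands and EphB receptors the transmembrane ephrin-B ligands, and contact usually repels growth cones or keeps cell populations apart. Class 3 semaphorins are secreted and mostly signal through neuropilins as binding subunits and A-type plexins as signalling subunits. In the ear, both families are known for guiding spiral and vestibular ganglion axons and for sorting neurons, glia and mesenchyme around the epithelium.

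Epha5 and Epha3 showed the largest falls of the 5 genes, and they stood almost side by side in the homozygous list. The receptor EphA5 is best known from the graded maps that retinal and forebrain axons form. RNA of its gene Epha5 was at 10.0% of wild type (log2 -3.32, adjusted p 4.99e-07 from the authors' deposited table). EphA3 is a receptor of the same subclass, known for graded maps and for repulsion of motor axons. RNA of its gene Epha3 was at 10.6% (log2 -3.24, adjusted p 3.88e-06 from the authors' deposited table). By size of the fall they took places 20 and 22 of the 669 genes listed as lower in homozygotes, with the microRNA host transcript Mir9-3hg, listed under its older symbol AI854517, between them. By adjusted p they took places 75 and 93 of the same 669 genes. Neither was listed in heterozygotes.

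Epha7, whose receptor is known for repulsion and for cell sorting in the early neural tube, fell less. It was at 54.2% of wild type in homozygotes (log2 -0.88, adjusted p 0.00221 from the authors' deposited table) and was not listed in heterozygotes. Its place by size of the fall was 501 of 669, so that 74.7% of the lower genes had a larger fall. The 3 receptor genes thus lay on both sides of the list's median, with Epha5 and Epha3 well beyond its value of -1.35 and Epha7 short of it on the log2 scale by the authors' deposited table. Whether the falls of the 3 receptors differ from each other was not tested, since no standard errors are given.

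**Figure D1:**
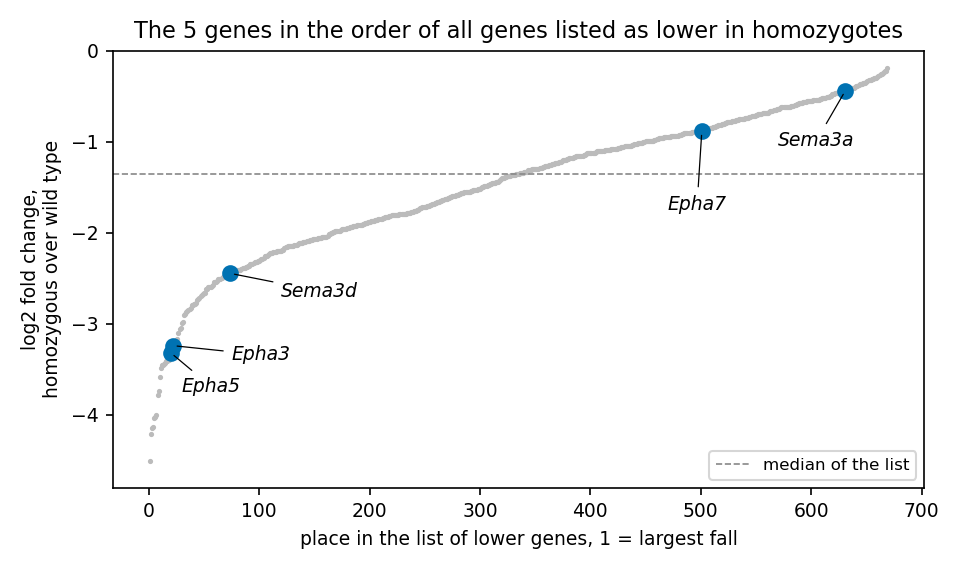
Log2 fold change (homozygous over wild type, vertical axis) of all 669 genes listed as lower in homozygotes, in order of the size of the fall (horizontal axis, place 1 the largest fall). Each grey point is a gene, blue points are the 5 genes described here, and the dashed line is the list's median of -1.35; Epha5, Epha3 and Sema3d lie below the line and Epha7 and Sema3a above it.

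The promoter windows of Epha5 and Epha3 are shown because these 2 genes fell nearly alike, and they can be set against those of the semaphorin genes. Each window runs from 250 bases before to 50 bases after an annotated transcription start, is written 5′ to 3′ on the gene's own strand and comes from RefSeq on the build GRCm38.p6, and CG dinucleotides are in capitals. The Epha5 window is at chr5:84417333-84417632 and the Epha3 window at chr16:63864126-63864425, both on the minus strand.
Epha5: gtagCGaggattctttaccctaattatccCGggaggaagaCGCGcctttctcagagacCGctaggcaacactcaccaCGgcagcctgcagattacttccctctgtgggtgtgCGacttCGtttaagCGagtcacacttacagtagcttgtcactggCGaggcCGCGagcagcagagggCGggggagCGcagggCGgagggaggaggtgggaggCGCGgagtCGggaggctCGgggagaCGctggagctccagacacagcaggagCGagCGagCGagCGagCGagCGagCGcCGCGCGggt
Epha3: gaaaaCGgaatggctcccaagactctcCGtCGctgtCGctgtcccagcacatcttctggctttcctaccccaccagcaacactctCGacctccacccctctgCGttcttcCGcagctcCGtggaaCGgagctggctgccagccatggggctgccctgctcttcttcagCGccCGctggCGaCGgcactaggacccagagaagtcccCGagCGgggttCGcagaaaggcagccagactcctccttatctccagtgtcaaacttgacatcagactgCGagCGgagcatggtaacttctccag

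These windows were rich in G and C. The Epha5 window held 30 CG dinucleotides at a GC content of 64.3%, and the Epha3 window held 18 at 60.7%. Epha7 has 2 annotated starts, whose windows held 28 and 27 CG dinucleotides at 67.0% and 66.3% GC. Over the 32851 windows compared, the medians were 7 CG dinucleotides and 52.7% GC, and over the 759 windows of genes lower in homozygotes they were 16 and 59.3%. Over the 423 windows of genes higher in homozygotes they were 18 and 60.7%. All 4 windows of the EphA genes lay above the medians of all windows and of lower genes for CG count and GC content. The Epha3 window stood at the medians of the higher genes, to the digits given. The letters CANNTG, an E-box bound by basic helix-loop-helix factors such as the neurogenins, were searched on both strands and were found in none of the 4 windows, against 72.3% of all windows and 65.9% of the windows of genes lower in homozygotes. A match or its absence describes these letters alone.

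The rest of the Eph system was mostly outside the lists. Of 9 EphA receptor genes, 3 were lower in homozygotes, and these are the 3 described here. Epha1, Epha2, Epha4, Epha6, Epha8 and Epha10 were not listed in either genotype, and neither was any of 5 EphB receptor genes or of 3 ephrin-B genes. Of 5 ephrin-A genes, which encode the ligands of EphA receptors, Efna1 alone was listed. It rose in homozygotes to 2.37 times wild type (log2 1.25, adjusted p 0.0396 from the authors' deposited table), opposite in direction to the 3 receptors. None of 19 genes for proteins that take part in Eph signalling, such as the exchange factors Ngef and Vav2 and the protease Adam10, was listed in either genotype. As a background, the 669 lower genes in homozygotes are 3.05% of 21900 protein-coding genes in RefSeq, the number of genes the authors tested not being given, and 61.7% of all listed genes in homozygotes were lower. The 3 lower receptors of 9 were the genes chosen for their falls, so nothing is read from that share.

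Sema3d, a secreted semaphorin known from vascular and neural crest cell guidance, was at 18.4% of wild type in homozygotes (log2 -2.45, adjusted p 0.000248 from the authors' deposited table) and was not listed in heterozygotes. It took place 74 of 669 by size of the fall, where 10.9% of the lower genes had a larger fall. Sema3a, the prototype of the secreted repellents, needed to keep sensory axons in tight bundles, had the smallest fall of the 5 genes in homozygotes. It was at 73.8% of wild type (log2 -0.44, adjusted p 0.0460 from the authors' deposited table), place 631 of 669, and 16 of the 669 lower genes had a larger adjusted p. Sema3a in homozygotes thus lay close to the edge of the authors' call.

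Sema3a was the single gene of the 5 called with 1 trapped allele. It was at 65.4% of wild type in heterozygotes (log2 -0.61, adjusted p 5.18e-07 from the authors' deposited table), and by adjusted p it took place 17 of the 95 genes listed as lower there. In that list it stood 2 places before Chd7 by size of the fall, at log2 -0.61 beside -0.57, with the small GTPase gene Rnd2 (-0.58) between them, from the authors' deposited table. The 95 lower genes are 0.434% of the 21900 protein-coding genes and 68.8% of all genes listed in heterozygotes. The fall of Sema3a was 0.17 smaller on the log2 scale in homozygotes than in heterozygotes. This difference was not tested, as neither comparison gives a standard error, and both comparisons share the 2 wild type libraries.

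**Figure D2:**
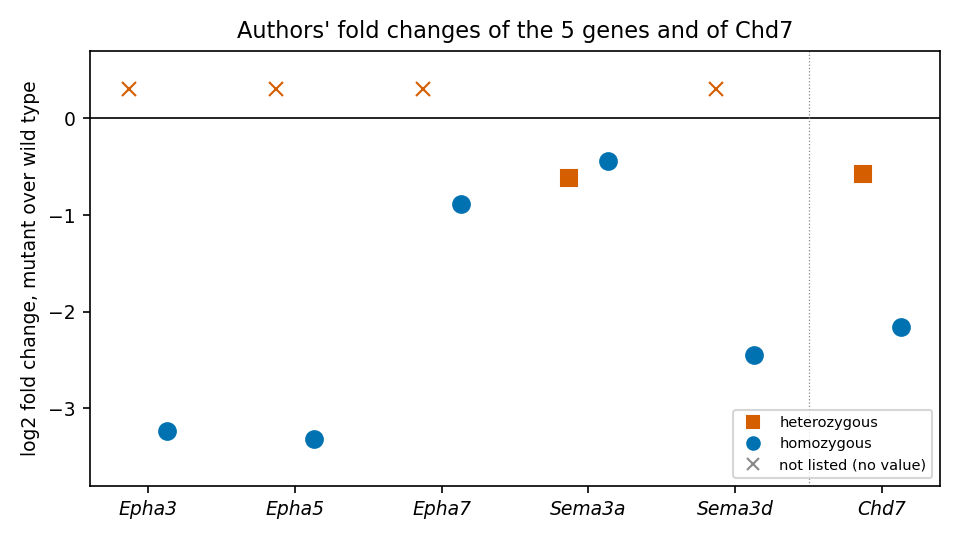
Log2 fold change of mutant over wild type (vertical axis) of the 5 genes and of the trapped gene Chd7, as the authors gave it, with orange squares for heterozygotes and blue circles for homozygotes. Crosses above the line at 0 mark genes that were not listed in heterozygotes and have no value; Sema3a alone of the 5 has a value in both, at -0.61 and -0.44.

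The Sema3d and Sema3a windows are shown for contrast with the receptor genes. They come from the same RefSeq table and build, at chr5:12382916-12383215 for Sema3d and chr5:13396534-13396833 for Sema3a, both on the plus strand, with CG dinucleotides in capitals.
Sema3d: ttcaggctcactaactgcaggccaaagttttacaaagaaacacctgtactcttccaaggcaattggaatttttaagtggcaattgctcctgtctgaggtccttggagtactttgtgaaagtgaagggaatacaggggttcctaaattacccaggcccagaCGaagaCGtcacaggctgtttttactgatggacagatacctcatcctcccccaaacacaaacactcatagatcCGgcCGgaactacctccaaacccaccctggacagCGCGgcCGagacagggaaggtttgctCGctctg
Sema3a: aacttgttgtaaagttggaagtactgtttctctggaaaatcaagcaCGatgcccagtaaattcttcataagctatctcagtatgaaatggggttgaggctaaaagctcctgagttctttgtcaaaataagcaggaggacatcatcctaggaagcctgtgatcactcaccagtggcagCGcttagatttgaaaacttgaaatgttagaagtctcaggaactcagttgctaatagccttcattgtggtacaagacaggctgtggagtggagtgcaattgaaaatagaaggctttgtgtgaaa

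Both windows were poorer in G and C than those of the receptor genes. The Sema3d window held 8 CG dinucleotides at 49.7% GC and the Sema3a window held 2 at 41.3% GC. Of all windows, 51.4% had fewer CG dinucleotides than that of Sema3d and 14.1% had fewer than that of Sema3a. Whether these annotated starts are the ones used in otocysts was not examined. The E-box letters CANNTG stood 3 times in the Sema3d window and 2 times in the Sema3a window. The letters ACAAAG, a core shared by SOX and TCF factors, stood 2 times in each, against 18.7% of all windows and 19.1% of those of genes lower in homozygotes with at least 1 match, and in none of the windows of the 3 receptor genes. The nuclear receptor core AGGTCA, which retinoic acid receptors bind, was in none of the windows of the 5 genes, against 16.3% of all windows and 10.7% of the windows of genes lower in homozygotes. The TATA box TATAAA was in none of these windows either, against 13.6% of all windows and 8.3% of those of lower genes. The hypoxia core ACGTG was in none, against 19.6% of all windows and 16.6% of those of lower genes. The E-box form CAGCTG was in none, against 16.3% of all windows and 20.2% of those of lower genes. The CCAAT box CCAAT was in those of Epha7 and Sema3d and in 37.4% of all windows and 39.3% of those of lower genes. The GC box GGGCGG was in those of Epha5 and Epha7 and in 35.7% of all windows and 52.8% of those of lower genes. All 8 motifs were searched on both strands.

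The class 3 semaphorin gene Sema3e fell beside Sema3d and Sema3a. Sema3e, which signals directly through Plexin-D1 and has been examined in people as a candidate gene for CHARGE syndrome, was at 25.4% of wild type in homozygotes (log2 -1.98, adjusted p 0.0213 from the authors' deposited table) and was not listed in heterozygotes. Sema3d, Sema3a, Sema3e and Sema3c lie on mouse chromosome 5 in this order. The stretch from Sema3d to Sema3c holds 22 protein-coding genes in RefSeq, 18 of them not semaphorins. Of these 18, Pclo, a presynaptic scaffold gene (log2 -1.49), and Cacna2d1, a calcium channel subunit gene (log2 -1.38), were lower in homozygotes from the authors' deposited table. The rest were not listed, and apart from Hgf they are predicted (Gm) genes or genes of the Speer family. Whether those were measured is not known. Sema3c, at the far end, was not listed in either genotype. None of the 18 was listed in heterozygotes. Around the receptor genes, none of the 6 protein-coding neighbours on either side of Epha3, Epha6 among them, or of Epha5 was listed. Of the 12 around Epha7, Fut9 (log2 -1.60) and Mdn1 (log2 -0.89) were lower in homozygotes from the authors' deposited table. As a background, 3.05% of 21900 protein-coding genes in RefSeq were lower in homozygotes and 0.434% in heterozygotes. These counts of neighbours are small and were not tested.

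Of the other semaphorins and their receptors, few were listed. Sema3b, Sema3c, Sema3f and Sema3g were in no list. Of 13 semaphorin genes of other classes, the membrane-bound Sema6a was lower in homozygotes (log2 -1.18, adjusted p 0.00820), and the lipid-anchored Sema7a was lower in heterozygotes (log2 -0.76, adjusted p 0.0256), from the authors' deposited table. Nrp1 and Nrp2, the neuropilins that bind class 3 semaphorins, were not listed. Of 9 plexin genes, Plxna4, a signalling subunit for Sema3a (log2 -1.36, adjusted p 0.00377), and Plxnb1, a receptor of class 4 semaphorins (log2 -0.86, adjusted p 0.0336), were lower in homozygotes and 7 were not listed, by the authors' deposited table. Without Sema3a and Sema3d, 4 of 29 genes of the semaphorin system were lower and 0 higher in homozygotes, where 3.05% of protein-coding genes were lower. In heterozygotes 1 was lower and 0 were higher, where 0.434% of protein-coding genes were lower. The median of the 4 in homozygotes was -1.27 on the log2 scale by the authors' deposited table. This was close to that of all lower genes in homozygotes (-1.35).

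**Figure D3:**
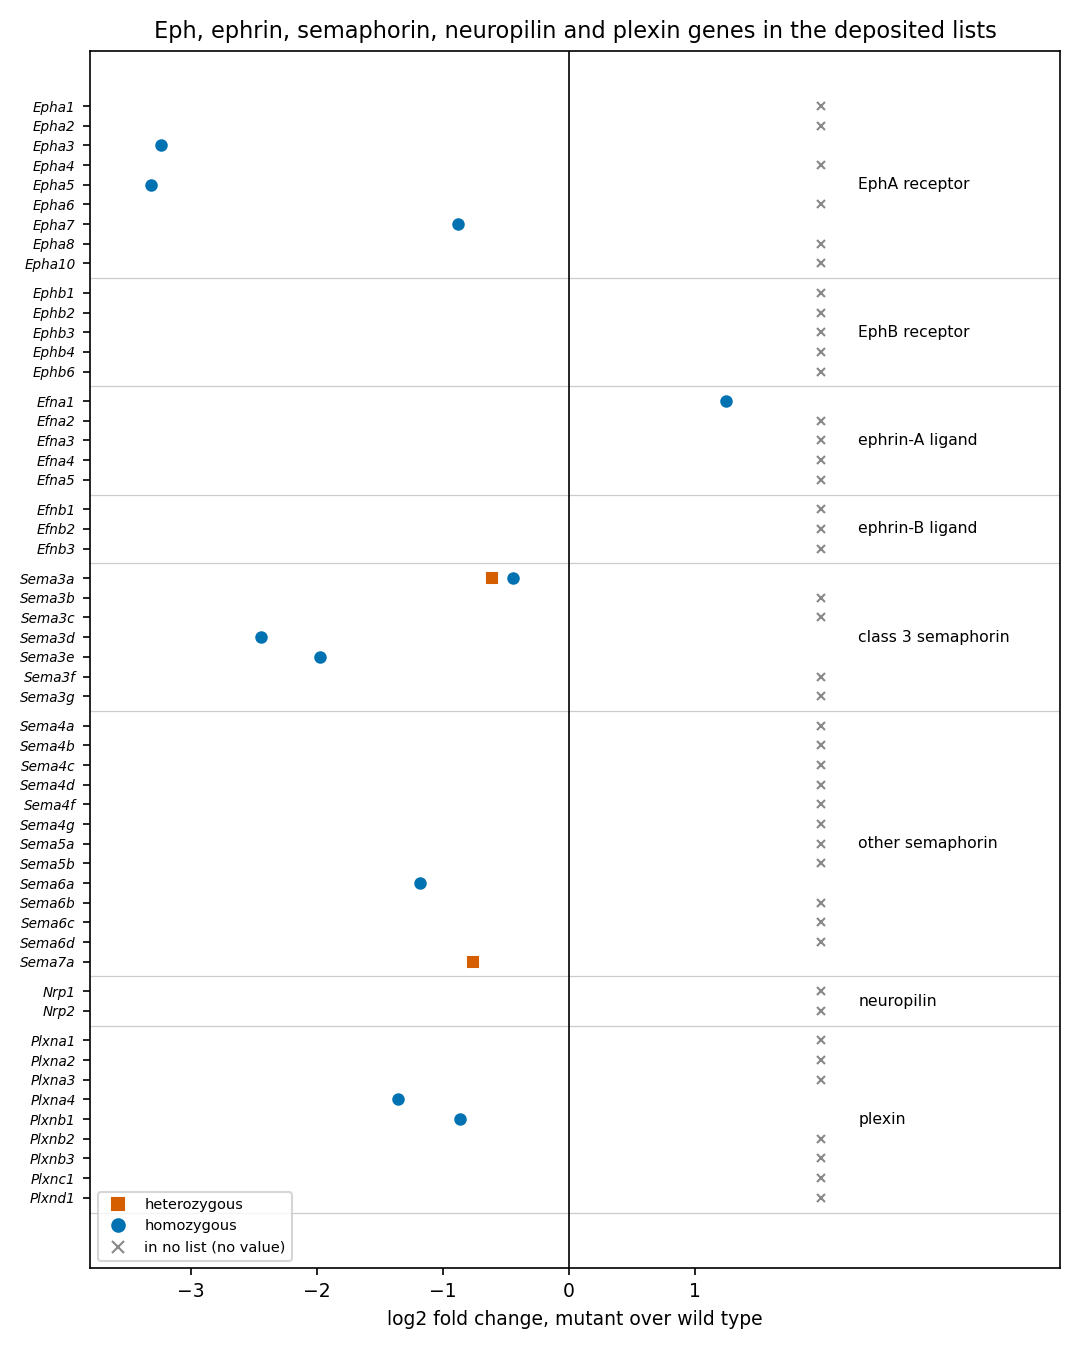
Log2 fold change of mutant over wild type (horizontal axis) for 53 Eph, ephrin, semaphorin, neuropilin and plexin genes, grouped by role from top to bottom, with orange squares for heterozygotes and blue circles for homozygotes as the authors gave them. Grey crosses at the right mark genes in no list, which have no value; 9 genes were lower and 1, Efna1, was higher in homozygotes, and 2 were lower in heterozygotes.

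Coreceptors and cytosolic mediators of semaphorin signalling were also listed. Of 20 such genes, 6 were lower and 0 higher in homozygotes, against 0 of 19 for Eph signalling. Over 21900 protein-coding genes in RefSeq, 3.05% were lower there, a share at which few or none of 19 genes would be listed. The difference between the 2 lists was not tested, and nothing is read from it. Among the 6 were cell adhesion genes of the immunoglobulin family. Chl1, a coreceptor partner of neuropilins, was at 10.0% of wild type (log2 -3.32) and Cntn2 at 16.6% (log2 -2.59), by the authors' deposited table. L1cam, which couples neuropilin 1 to its signal, was at 33.1% (log2 -1.60) by the authors' deposited table. The others were the cytosolic collapsin response mediators Crmp1 (log2 -1.55), Dpysl4 (-1.59) and Dpysl3 (-1.09) from the authors' deposited table, while Dpysl2, the form through which the Sema3a response was first described, was not listed. Cntn2 was also lower in heterozygotes (log2 -0.36, adjusted p 0.0260 from the authors' deposited table). Chl1 stood directly before Epha5 in the order of falls, at log2 -3.32 for each from the authors' deposited table.

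In homozygotes most markers of young neurons were lower, as the 5 genes were. Of 15 neuroblast and cranial ganglion markers, 13 were lower and 0 higher in homozygotes, at a median of -2.10 on the log2 scale by the authors' deposited table, and 2 were not listed. In heterozygotes, where Sema3a was lower, 1 of these markers, Neurod4 (log2 -0.93), was lower from the authors' deposited table. The 2 higher ones were Dcx (log2 0.21) and Pou4f1 (log2 0.54) from the authors' deposited table. Of 17 neural tube markers, 5 were lower and 2 higher in homozygotes, and 7 were lower and 0 higher in heterozygotes. Of 16 periotic mesenchyme markers, 4 were lower and 1 higher in homozygotes, and 4 were lower and 0 higher in heterozygotes. Of 10 neural crest markers, 2 were lower in homozygotes and 3 higher in heterozygotes. Of 10 endothelial markers, 3 were higher in homozygotes, and of 8 blood markers 2 were lower in heterozygotes. Over 21900 protein-coding genes in RefSeq, 3.05% were listed as lower in homozygotes and 0.434% in heterozygotes. Beside the same 21900, the lists of higher genes held 416 genes in homozygotes and 43 in heterozygotes. As no levels are given, it cannot be seen which of these markers are near 0 in a library. The part of these cell types in the falls of Epha3, Epha5, Epha7, Sema3a and Sema3d was not tested.

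The genes whose values were most like each of the 5 were found by the smallest distance between log2 fold changes. For Sema3a, over both comparisons and the 56 genes listed in both, these were the forkhead gene Foxp2 (-0.62 in heterozygotes and -0.73 in homozygotes), the matrix proteoglycan gene Vcan (-0.31 and -0.51) and the chaperone gene Dnajc1 (-0.53 and -0.77), from the authors' deposited table. For the 4 genes listed in homozygotes alone, 1 comparison gives the likeness, so it says only that the folds are of one size, and only the 1029 genes likewise listed in homozygotes alone were compared. Lum, a periotic mesenchyme marker listed in both genotypes and so not compared, stood directly before Sema3d in the homozygous order, at log2 -2.45 for each from the authors' deposited table. Among the genes compared, nearest to Sema3d (-2.45) were the neuronal intermediate filament gene Ina (-2.45), Nacad (-2.44) and Svop (-2.44), to Epha5 Chl1, Mir9-3hg (-3.30) and the neural tube homeobox gene Gsx1 (-3.39), to Epha3 Mstn (-3.21), Apc2 (-3.20) and the glutamate transporter gene Slc17a6 (-3.20), and to Epha7 Mdn1 (-0.89), Gtf3c4 (-0.89) and Sncaip (-0.89), all as log2 fold changes from the authors' deposited table.

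All 5 genes are long, a feature that did not enter their choice. In the GENCODE M21 annotation Sema3a spans 477 kb, Epha5 363 kb, Epha3 321 kb, Sema3d 206 kb and Epha7 154 kb. Their families are long as well, with a median span of 148 kb over 9 EphA receptor genes and 156 kb over 7 class 3 semaphorin genes. Relatives that were not listed include Epha6 (952 kb), Sema3c (156 kb) and Epha4 (148 kb). The median was 47.5 kb for the 646 genes lower in homozygotes that have an annotated span, 15.8 kb for the 380 higher genes and 17.4 kb for all 21924 protein-coding genes. Among the lower genes, the share with a shorter span was 80.0% for Epha7 at the low end and 96.4% for Sema3a at the high end. Of the 53 Eph, ephrin, semaphorin, neuropilin and plexin genes, 22 span at least 100 kb, and 8 of these were listed in homozygotes, all as lower. Of the 31 shorter ones, 2 were listed, Plxnb1 as lower and Efna1 as higher. With the 5 genes left out, which had been chosen for their falls, 3 of 17 long and 2 of 31 shorter genes were listed. Among all 21924 protein-coding genes, 2490 spanned at least 100 kb, and 203 of these were lower and 32 higher in homozygotes. Over all genes with a span, 31.4% of those lower in homozygotes and 8.42% of those higher spanned at least 100 kb, against 11.4% of all protein-coding genes. The part of gene length in these calls was not tested.

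**Figure D4:**
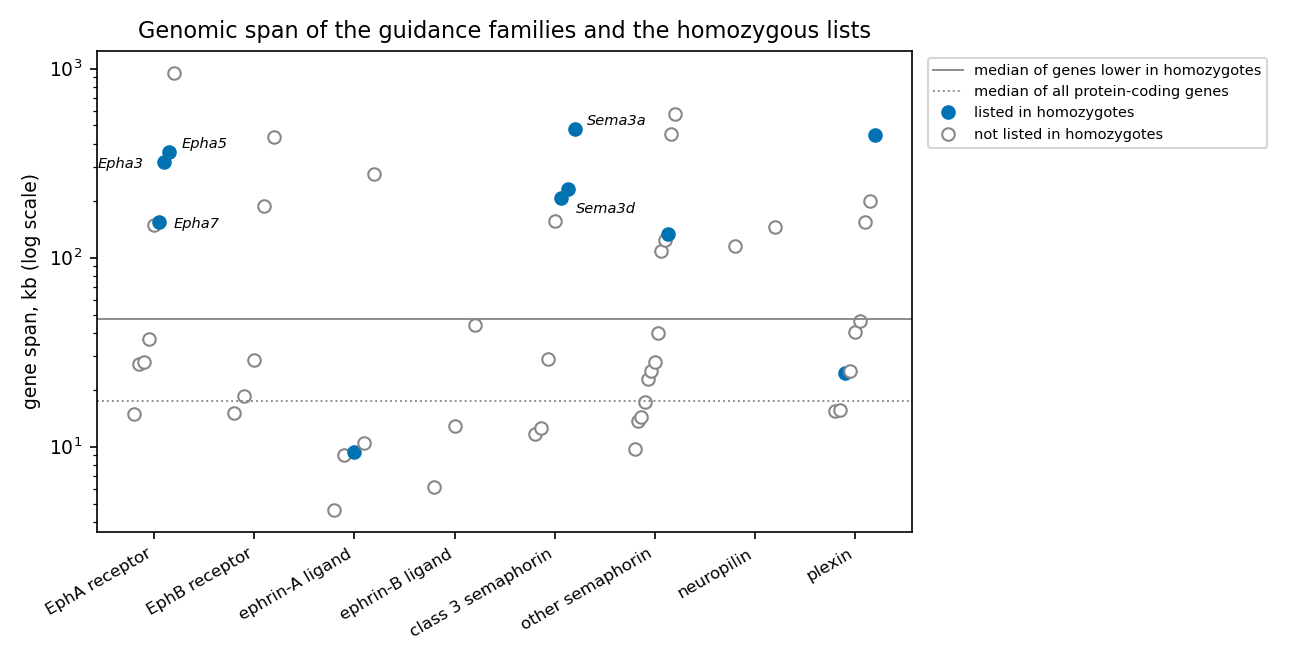
Genomic span in kb (vertical axis, log scale) of the 53 guidance genes by role (horizontal axis), filled blue where the gene was listed in homozygotes and open where it was not. Lines mark the medians of genes lower in homozygotes (47.5 kb, solid) and of all protein-coding genes (17.4 kb, dotted); the 5 labelled genes lie between 154 and 477 kb, above both lines.

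Sharing of reads between paralogues was not measured, and only the likeness of annotated transcripts is given. The coding sequences of the 3 receptors, 2952 bases for Epha3, 3120 for Epha5 and 2994 for Epha7, were 67.0 to 68.5% identical in pairs over aligned positions. Those of Sema3a (2316 bases) and Sema3d (2331 bases) were 65.3% identical. No stretch of 50 bases in the longest coding transcripts of Epha3, Epha5, Epha7 or Sema3d occurred in a transcript of another gene on either strand. For Sema3a, 152 of 5881 such stretches, 2.58%, also occurred in the processed pseudogene Gm43431. The library kit named in the labels does not mark strand, so reads of a gene and of a transcript on its opposite strand cannot be told apart. By whole gene span, introns included, a gene on the opposite strand overlaps Epha5 (the pseudogene Hmgn2-ps1), Epha7 (the antisense gene Gm11915), Sema3a (Gm42680) and Sema3d (the pseudogene Gm8925). Genes on the same strand overlap Epha3 (Gm22769), Sema3a (Gm43130, Gm42676 and Gm42675) and Sema3d (Gm42909). None of these overlapping genes was listed, and whether exons overlap was not examined.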

How the data were processed

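RNA libraries from 6 otocyst samples, 2 per genotype, were grouped by the genotype in their titles. The deposited files are 4 lists of called genes, and both their log2 fold changes and their adjusted p-values were computed by the authors before deposit. Without stating a role for any of them, the submitters' processing notes list DESeq 1.22.1, Bowtie2 2.0.6 and the mm9 build. For filters, counting and the design of the fit, nothing is given in the sources used here. No test was refitted, since the depth and the values per library are unknown. The 5 genes, gene lists and tests were chosen with earlier results of these data known.

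Genes were taken by symbol, with older symbols replaced through RefSeq: 132 of 138 heterozygous and 989 of 1085 homozygous symbols matched directly, 6 and 93 matched as older names, and 3 of the homozygous symbols did not match. Percent of wild type was computed as 100 times 2 to the power of the log2 fold change. Genes named with values are these 5, Chd7, listed genes of the guidance and marker lists, the 3 nearest in fold change and the neighbours in fold order or beside Sema3d and Sema3a on their chromosome; Fut9 falls outside this rule and was named after its value was seen. Genes of the lists and neighbours that were not listed are named without a value, as examples or in full. Spans and transcripts came from GENCODE M21 and promoter windows from RefSeq (both GRCm38, not the mm9 of the notes, so no coordinates from the lists were joined to them). All promoter windows except those of chromosome 18 were compared. Coding sequences were aligned globally with Biopython 1.88 (match 2, mismatch -1, gap opening -5, gap extension -0.5, end gaps free); proteins were not compared. Python 3.11.15, numpy 2.4.6, pandas 2.3.3 and matplotlib 3.10.9 were used. Alternatives were adjusted p of at most 0.01 or 0.001, an absolute log2 fold change of at least 1, and identity over the shorter coding sequence.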

Additional observations from a re-analysis of the deposited data

How the results depend on the processing

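Stricter limits were applied to the authors' calls. Of the 5 genes listed in homozygotes, 4 remained at an adjusted p of at most 0.01 (Sema3a was lost), and 3 remained at 0.001 (Epha3, Epha5 and Sema3d). The same 3 remained at an absolute log2 fold change of at least 1. Of the 10 Eph, ephrin, semaphorin, neuropilin and plexin genes listed in homozygotes, 6 remained at 0.01, all lower, 3 at 0.001, and 7 at the fold limit. In heterozygotes Sema3a remained at 0.01 and at 0.001, as 1 of the 2 genes of these families, Sema7a being lost at both limits, and 0 of the 2 remained at the fold limit. Sema3a was listed in both genotypes as deposited, and 0 of the 5 genes were in both under any of the 3 stricter limits. Identity over the shorter coding sequence was 66.4 to 68.1% for the receptor pairs and 63.1% for the semaphorin pair. No paired analysis was possible because the deposited lists carry no values per library, and leaving out a replicate was not possible for the same reason. Depth is unknown, so how far it limits the calls, and whether genes that are not listed were measurable, cannot be said.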

Other observations

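Guidance families beside the Ephs and semaphorins were listed in both directions. Of 40 such genes, 8 were lower and 1 higher in homozygotes, where 3.05% of 21900 protein-coding genes in RefSeq were lower. In heterozygotes 4 were lower and 1 higher, where 0.434% of protein-coding genes were lower. Beside the same 21900, the lists of higher genes held 416 genes in homozygotes and 43 in heterozygotes. In homozygotes the lower genes included Robo3, a receptor that lets commissural axons cross the midline (7.48% of wild type, log2 -3.74), Slitrk6, needed for innervation of the inner ear (7.27%, log2 -3.78), and the netrin receptor genes Dcc (29.0%, log2 -1.79) and Unc5c (50.4%, log2 -0.99), from the authors' deposited table. Draxin, a secreted repellent listed under the older symbol 2610109H07Rik, was also lower there (log2 -1.80, adjusted p 0.000118 from the authors' deposited table). The higher gene was Flrt3, an adhesion molecule that binds Unc5 receptors (log2 0.79, adjusted p 0.00723 from the authors' deposited table).

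In heterozygotes the lower guidance genes were Ntn1, Slit1, Slit2 and Slitrk6. Ntn1, an attractant secreted by the floor plate and by the otic epithelium, was at 38.6% of wild type (log2 -1.37), the repellent genes Slit2 at 56.3% (log2 -0.83) and Slit1 at 67.7% (log2 -0.56), and Slitrk6 at 65.2% (log2 -0.62), from the authors' deposited table. Of 17 neural tube markers, 7 were lower in the same heterozygous list. They included the floor plate and ventral neural tube genes Shh (log2 -5.54, place 1 of 95), Foxa2 (-3.42), Nkx2-2 (-3.02) and Nkx6-1 (-2.12) from the authors' deposited table. The others were Barhl1 (-1.79), Atoh1 (-1.77) and Lhx2 (-0.78) from the authors' deposited table. Barhl1, Lhx2 and Slitrk6 were also lower in homozygotes. Shh, Foxa2, Nkx2-2, Nkx6-1, Atoh1, Ntn1, Slit1 and Slit2 were not listed there. The part of the neural tube markers in the falls of the guidance genes was not tested. Robo3 was 3.02 times wild type in heterozygotes (log2 1.59 from the authors' deposited table), opposite to its direction in homozygotes. The difference between the genotypes was not tested, and both were compared with the same 2 wild type libraries.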
